A study of Mus musculus with 4 samples.

Results

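The B-lineage genes described here are 8 genes known from B-cell development, Ebf1, Il7r, Igll1, Vpreb3, Cd79b, Blnk, Bank1 and Cd72, followed in RNA of sorted haematopoietic stem cells. They were picked by name with results of these libraries known, to separate genes that go with the genotype from genes that go with the number a library carries, so their own differences are given as descriptions, without a test. Of the 8 genes, 7 were among the 9244 genes with library values, and Blnk was not analysed here. The study compared Sin3B KO with WT mice of the C57BL/6 strain, aged 8 to 12 weeks, with 2 libraries per genotype. Sin3B brings histone deacetylases to genes and so takes part in repression. The cells of both genotypes were long-term stem cells by their surface markers, LSK (lineage-negative, Sca-1-positive, Kit-positive) without CD34 and Flk2, and their polyA RNA was amplified by SMARTer, a method for small inputs. How the Sin3B allele was removed, in which cells, and whether the libraries of a genotype came from separate animals is not given in the labels. Within each genotype the libraries are called 1 and 2 by their titles, as here, and 1 and 3 by their descriptions, and what the number marks is not stated.

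B cells arise from stem cells through lymphoid progenitors in the marrow. The transcription factor Ebf1, acting after E2A proteins and with Pax5, switches on B-cell genes, and interleukin 7, read through its receptor chain Il7r, sustains the early stages in the mouse. Pro-B cells then build a pre-B-cell receptor, in which the surrogate light chain proteins, Igll1 (lambda 5) and VpreB, pair with the immunoglobulin heavy chain, and Cd79a and Cd79b carry the signal inward. Blnk and Bank1 are adaptors of that signal, and Cd72 is a coreceptor that dampens it. Long-term stem cells are the source of this lineage, and the sort was designed to leave mature lineage cells out.

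The promoters of 4 of these genes are shown because Igll1, Vpreb3 and Il7r differed between the library numbers in both genotypes, while Bank1 differed with the genotype. Each window, from RefSeq on build GRCm38.p6, runs 5′ to 3′ on the gene's strand from 250 bases before to 50 bases after the annotated start. The capitals mark matches, on either strand, to the Ebf1 core CCCNNGGG, the E-box forms CAGGTG and CAGCTG, and the Ets-factor motif GGAAGT.
Igll1: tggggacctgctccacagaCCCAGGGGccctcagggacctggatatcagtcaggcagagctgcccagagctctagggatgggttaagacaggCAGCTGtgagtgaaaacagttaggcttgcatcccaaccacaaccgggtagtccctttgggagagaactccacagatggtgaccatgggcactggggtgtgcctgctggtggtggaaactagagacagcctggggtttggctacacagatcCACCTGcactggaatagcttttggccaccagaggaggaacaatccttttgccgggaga
Vpreb3: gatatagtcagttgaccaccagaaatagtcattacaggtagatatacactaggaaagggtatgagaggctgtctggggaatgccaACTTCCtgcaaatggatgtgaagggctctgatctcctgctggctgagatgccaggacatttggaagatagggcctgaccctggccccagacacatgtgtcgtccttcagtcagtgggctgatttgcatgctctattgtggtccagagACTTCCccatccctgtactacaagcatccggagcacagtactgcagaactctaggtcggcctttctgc
Il7r: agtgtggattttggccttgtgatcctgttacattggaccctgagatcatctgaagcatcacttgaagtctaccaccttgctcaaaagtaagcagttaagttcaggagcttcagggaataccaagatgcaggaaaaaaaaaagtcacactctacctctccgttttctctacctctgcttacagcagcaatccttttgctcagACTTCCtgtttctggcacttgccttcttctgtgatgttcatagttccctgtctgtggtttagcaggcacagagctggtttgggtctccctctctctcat
Bank1: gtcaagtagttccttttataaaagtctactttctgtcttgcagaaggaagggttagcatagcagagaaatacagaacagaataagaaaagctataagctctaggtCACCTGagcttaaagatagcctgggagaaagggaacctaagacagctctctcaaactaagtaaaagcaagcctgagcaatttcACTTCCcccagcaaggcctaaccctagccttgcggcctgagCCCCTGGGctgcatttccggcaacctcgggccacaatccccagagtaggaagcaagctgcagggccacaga
The windows are chr16:16863936-16864235 (minus strand) for Igll1, chr10:75948050-75948349 (plus strand) for Vpreb3, chr15:9529827-9530126 (minus strand) for Il7r and chr3:136326017-136326316 (minus strand) for Bank1. RefSeq promoters matched 7 of the 8 genes by symbol, with 2 starts for Ebf1; Cd79b had no entry. The Ebf1 core was found in Igll1 and in Bank1, where it began 21 bases before the start, and in 13.7% of the 32851 promoters searched. CAGGTG was in Igll1, Bank1 and Blnk (20.2% of all promoters) and CAGCTG in Igll1 (16.3%). GGAAGT was in 6 of the 7 matched genes, Vpreb3, Il7r, Bank1, Cd72, Blnk and the second start of Ebf1, against 23.8% of all promoters. The matched genes have 8 promoters, and a gene was counted if any of its promoters held the motif. No match overlapped another in the 4 windows shown. A match says only that these letters stand in the window.

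The libraries held between 9950979 and 13700630 reads in the listed genes, taking as 1 read the smallest step by which a library's values differ. Values below are normalised reads, the authors' read counts divided by 1 size factor per library. The lowest mean of any listed gene was 120.2 over the 4 libraries, and Il7r, with a mean of 121.0, was just above that bound. A gene that is nearly absent from some libraries is therefore listed only if others are high in it. Sin3b itself was at 755.4 and 646.5 in the Sin3B KO libraries and at 1522 and 1825 in WT. All 14 genes of the stem cell marker list had values, with summed values of 84493 and 97858 in the Sin3B KO libraries and 91595 and 89481 in WT. By library number, 2 of the 14 had a difference above 0, with a median of -0.16 on the log2(value + 1) scale; both number 1 libraries lay below both number 2 libraries for 6 (18.8% of all genes) and above for 1 (17.1%).

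**Figure D1:**
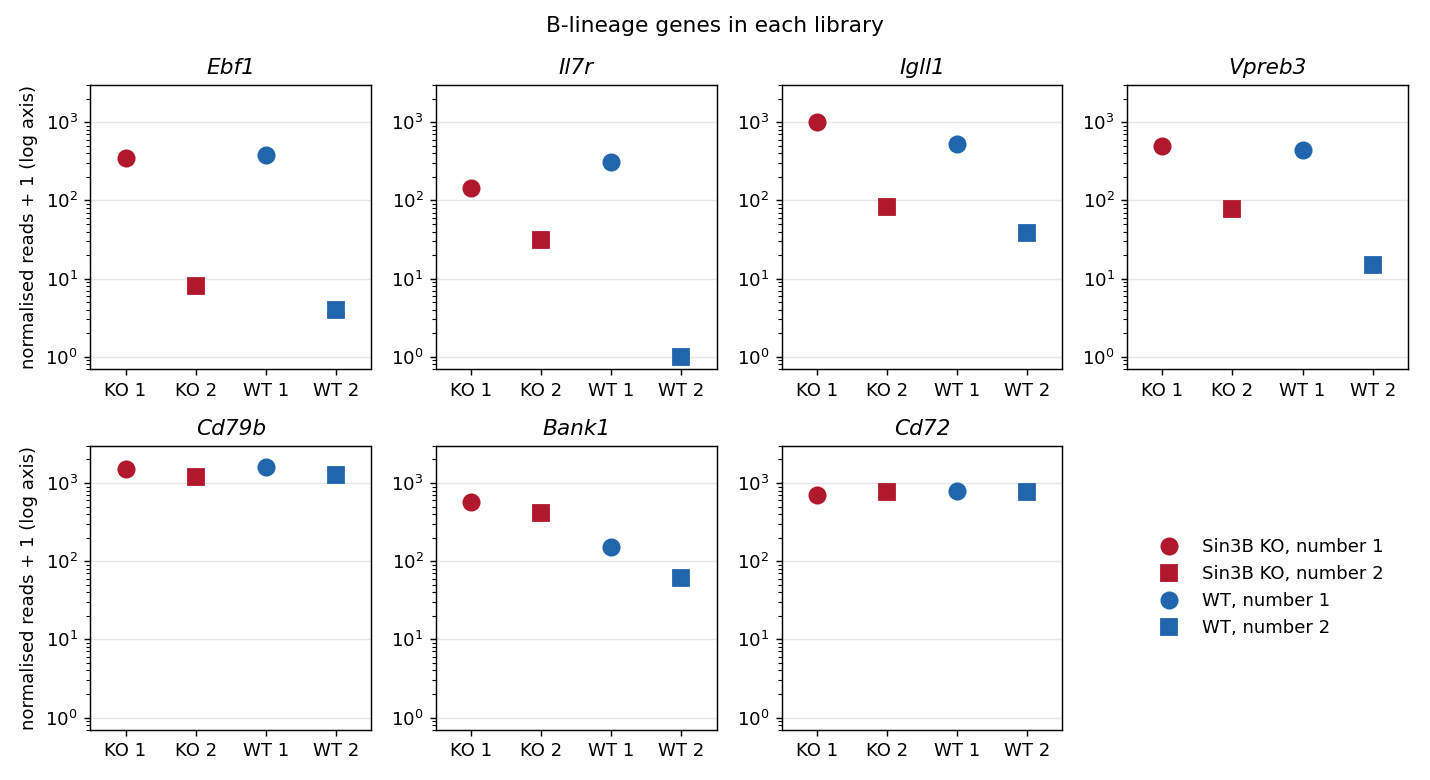
Normalised reads plus 1 (log axis) of the 7 genes in each library, Sin3B KO in red and WT in blue, circles for number 1 and squares for number 2. Ebf1, Il7r, Igll1 and Vpreb3 are high in both circles and low in both squares, Bank1 is high in both red points, and Cd79b and Cd72 are nearly level.

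Ebf1, the transcription factor that commits cells to the B lineage, was read almost solely in the libraries numbered 1. It was at 348.9 in Sin3B KO 1 and 7.13 in Sin3B KO 2, and at 378.5 in WT 1 and 2.97 in WT 2. These levels rest on 363 and 8 reads in the KO, and on 332 and 3 reads in WT. Number 1 was 48.9-fold above number 2 in the KO, with a 95% exact interval for counting error of 24.6 to 114.1, and 127.6-fold in WT (43.3 to 621.7). The groups of both genotypes overlapped. Between the genotypes the ratio was 0.922 within number 1 (interval 0.792 to 1.07) and 2.40 within number 2 (0.577 to 14.1). The intervals here and below treat reads as independent and cover counting error only. The mean was 178.0 ± 242 in Sin3B KO and 190.7 ± 266 in WT (SD, n = 2 each).

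Il7r, the receptor chain for interleukin 7, also followed the number, and was read in Sin3B KO 2 but not in WT 2. It was at 141.3 in Sin3B KO 1 and 30.3 in Sin3B KO 2, against 312.4 in WT 1 and 0 in WT 2. Number 1 exceeded number 2 by 4.66-fold in the KO (interval 3.19 to 6.98). In WT the ratio was 105.3-fold with the 0 replaced by the value of 3 reads in that library, 2.97. Within number 1 the KO library was lower, at 0.452 of WT 1 (0.368 to 0.555). Within number 2 the KO library was 10.2-fold higher with the same replacement. Ratios against the 0 carry no interval and leave out the counting error of the other library. The genotype difference therefore pointed in opposite directions in the numbered pairs. It also changed sign with the scale, as the mean was 85.8 ± 78.5 in Sin3B KO and 156.2 ± 221 in WT (SD, n = 2 each), a ratio of 0.549, while the difference of the log2(value + 1) means was 1.91.

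Igll1, the lambda 5 part of the surrogate light chain, was the most read of the 4 genes at least 4-fold higher in number 1 in both genotypes. It was at 991.9 in Sin3B KO 1 and 80.3 in Sin3B KO 2, and at 530.2 in WT 1 and 37.6 in WT 2. Number 1 was 12.4-fold above number 2 in the KO (interval 9.96 to 15.5) and 14.1-fold in WT (10.1 to 20.2). Within each number the KO library was also higher, by 1.87-fold in number 1 (1.68 to 2.09) and by 2.14-fold in number 2 (1.45 to 3.21). The genotypes nevertheless overlapped, since Sin3B KO 2 lay below WT 1. The mean was 536.1 ± 645 in Sin3B KO and 283.9 ± 348 in WT (SD, n = 2 each), a difference smaller than the spread within either genotype.

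Vpreb3, which is related to the VpreB chains and binds newly made immunoglobulin chains inside the cell, had the library order of Igll1, with Sin3B KO 1 highest, then WT 1, Sin3B KO 2 and WT 2. It was at 496.9 in Sin3B KO 1 and 75.8 in Sin3B KO 2, and at 445.8 in WT 1 and 13.8 in WT 2. Number 1 was 6.56-fold above number 2 in the KO (interval 5.20 to 8.35) and 32.2-fold in WT (19.0 to 59.4). The genotypes differed by 1.11-fold within number 1 (0.976 to 1.27) and by 5.47-fold within number 2 (3.09 to 10.4). Whether the number gap differs between genotypes was not tested.

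Cd79b, a signalling chain of the B-cell receptor, was abundant in every library. It was at 1509 in Sin3B KO 1 and 1196 in Sin3B KO 2, and at 1587 in WT 1 and 1275 in WT 2. Both libraries numbered 1 lay above both numbered 2, by 1.26-fold in the KO (interval 1.17 to 1.36) and by 1.24-fold in WT (1.15 to 1.34), a small step beside those of the genes above. Between genotypes it differed by less than the spread within them, at 1352 ± 221 in Sin3B KO and 1431 ± 221 in WT (SD, n = 2 each).

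Bank1, an adaptor that links the B-cell receptor to Lyn kinase and calcium release, was the one gene of the 7 with clearly separate genotypes. It was at 575.7 in Sin3B KO 1 and 416.5 in Sin3B KO 2, against 149.4 in WT 1 and 59.3 in WT 2. Both KO libraries thus lay above both WT libraries, on 599 and 467 reads in the KO and on 131 and 60 reads in WT. The mean was 496.1 ± 113 in Sin3B KO and 104.4 ± 63.7 in WT (SD, n = 2 each), a 4.75-fold higher value and a log2(value + 1) difference of 2.36. Within number 1 the KO was 3.85-fold higher (interval 3.19 to 4.69) and within number 2 it was 7.02-fold higher (5.35 to 9.34). Bank1 carried a number step as well, of 1.38-fold in the KO (1.22 to 1.56) and 2.52-fold in WT (1.84 to 3.48), in the same direction as the genes above. With each library left out in turn the difference ranged from 1.71 to 3.02; its sign was fixed by the lack of overlap.

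Cd72, a coreceptor that restrains B-cell receptor signalling, was nearly level. It was at 708.3 and 761.6 in the Sin3B KO libraries 1 and 2, against 791.3 and 775.4 in the WT libraries 1 and 2. The groups did not overlap, but the means were close, at 735.0 ± 37.6 in Sin3B KO and 783.3 ± 11.2 in WT (SD, n = 2 each), a ratio of 0.938. By number it did not separate, as number 1 was below number 2 in the KO and above it in WT. An exon of Cd72 overlaps an exon of Tesk1 on the other strand in the GENCODE annotation, and as the labels do not say that counting used strand, reads of these genes cannot be told apart there.

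Both Sin3B KO libraries lay above both WT libraries for 1 of the 7 genes (Bank1) and below them for 1 (Cd72); over all 9244 genes the shares were 24.7% and 19.4%. Both libraries numbered 1 lay above both numbered 2 for 5 of the 7, against 17.1% of all genes, and below them for 0, against 18.8%. A level in number 1 at least 4 times that in number 2 in both genotypes was found for Ebf1, Il7r, Igll1 and Vpreb3, and for 0.27% of all genes. These patterns chose the genes, so the shares are printed for scale and nothing is drawn from them. On the log2(value + 1) scale the number difference was 6.00 for Ebf1, 5.24 for Il7r, 3.80 for Vpreb3, 3.70 for Igll1, 0.89 for Bank1, 0.33 for Cd79b and -0.04 for Cd72. Over all genes it had a median of -0.02 and lay between -0.62 and 0.69 for the central 90% of genes. The genotype difference was 2.36 for Bank1, 1.91 for Il7r, 1.26 for Vpreb3, 0.99 for Igll1, 0.46 for Ebf1, -0.08 for Cd79b and -0.09 for Cd72, beside a median of 0.03 and a central 90% range of -0.71 to 0.58 over all genes. In bulk RNA, fewer cells of a type and less RNA per cell cannot be told apart.

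**Figure D2:**
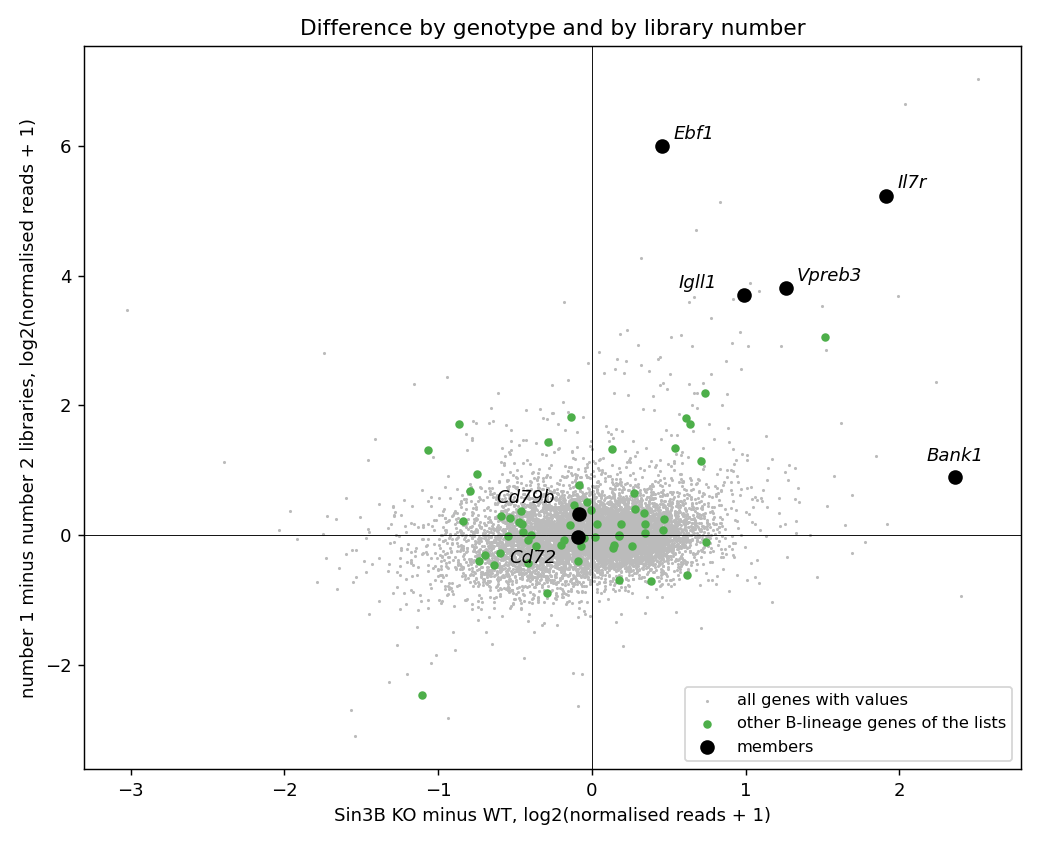
Each point is a gene, with the Sin3B KO minus WT difference on the horizontal axis and the number 1 minus number 2 difference on the vertical axis, both in log2(normalised reads + 1). Ebf1 (6.00), Il7r (5.24), Vpreb3 (3.80) and Igll1 (3.70) stand high on the vertical axis, Bank1 (2.36) stands to the right, and Cd79b and Cd72 lie within the cloud of all genes.

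On the log2(value + 1) scale the genotype differences of Ebf1, Il7r, Igll1 and Vpreb3 were positive. The KO mean was nonetheless below the WT mean for Ebf1 (ratio 0.933) and for Il7r (0.549). All these positive differences changed sign with some libraries left out. Leaving 1 out sets unequal mixes of number 1 and number 2 against each other, so a wide number step can turn the sign. Between same-numbered libraries the KO was higher for Igll1 in number 1 (1.87-fold) and in number 2 (2.14-fold). For Vpreb3 these ratios were 1.11 (interval 0.976 to 1.27) and 5.47. For Ebf1 (0.922 and 2.40) both intervals spanned 1, and Il7r had opposite directions. With each library left out in turn the log2(value + 1) difference ranged from -2.83 to 3.75 for Ebf1, from -2.23 to 6.06 for Il7r, from -0.90 to 2.88 for Igll1 and from -1.19 to 3.72 for Vpreb3. Each changed sign without WT replicate 2, and Ebf1, Igll1 and Vpreb3 did so without Sin3B KO replicate 1 as well. Cd79b ranged from -0.25 to 0.09 and Cd72 from -0.14 to -0.04. In the authors' deposited table, whose fold changes are shrunken for noisy genes, the log2 fold change of Sin3B KO over WT was 1.20 for Bank1, 0.06 for Igll1, 0.02 for Vpreb3, -0.02 for Il7r, -0.0038 for Ebf1, -0.07 for Cd79b and -0.07 for Cd72.

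**Figure D3:**
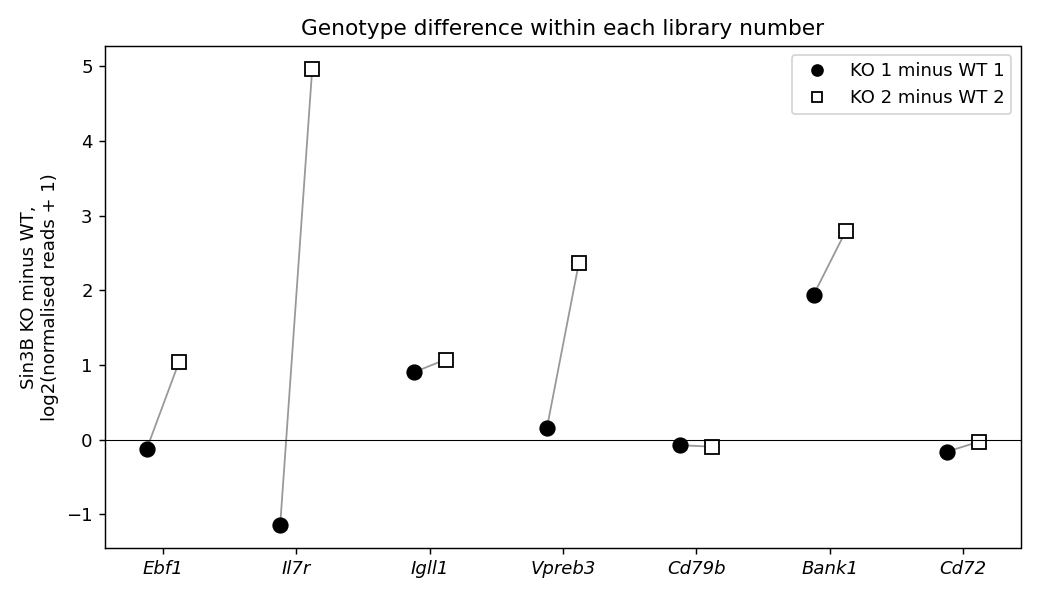
The Sin3B KO minus WT difference in log2(normalised reads + 1) of each gene, taken between the libraries numbered 1 (filled circles) and between those numbered 2 (open squares). Bank1 lies above 0 in both (1.94 and 2.79), Igll1 by 0.90 and 1.07, and Il7r has opposite signs (-1.14 and 4.97).

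Levels can be set against each other between genes only per length. Per kilobase of annotated exon, Cd79b stood highest of the 7 genes, at 1054 and 835.7 normalised reads in Sin3B KO 1 and 2 and at 1109 and 890.9 in WT 1 and 2. The means per kilobase in Sin3B KO and in WT were 333.4 and 267.5 for Vpreb3, 247.7 and 131.2 for Igll1, 214.8 and 228.9 for Cd72, and 66.3 and 13.9 for Bank1. The least abundant in the KO were Ebf1, at 18.2 in Sin3B KO and 19.6 in WT, and Il7r, at 18.4 in Sin3B KO and 33.5 in WT. The median gene stood at 153.8 and 150.7 per kilobase in Sin3B KO 1 and 2 and at 151.9 and 152.6 in WT 1 and 2. Accordingly Vpreb3, at 578.5 per kilobase in Sin3B KO 1 and 519.0 in WT 1, was above the median gene in the libraries numbered 1 and below it in those numbered 2, at 88.2 in Sin3B KO 2 and 16.1 in WT 2. Igll1 did the same, at 458.4 in Sin3B KO 1 and 245.0 in WT 1, and at 37.1 in Sin3B KO 2 and 17.4 in WT 2. Ebf1, at 35.8 and 38.8 in Sin3B KO 1 and WT 1, was below the median gene in every library.

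Among themselves the genes were alike to unequal degrees. Likeness was measured as the root mean square difference of log2(value + 1) over the 4 libraries, each gene centred on its own mean. Cd79b and Cd72 were the closest pair (0.19), followed by Igll1 and Vpreb3 (0.53). Ebf1 was 1.20 from Vpreb3 and 1.21 from Igll1. Bank1 was nearer to the level genes Cd79b (1.27) and Cd72 (1.33) than to Igll1 (1.57), Vpreb3 (1.59), Il7r (2.55) or Ebf1 (2.73).

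Over the whole table, the genes nearest to Ebf1 by the same measure were Alas2 (0.59), the first enzyme of erythroid haem synthesis, Beta.s (0.72), as the file spells it, and Ibsp (0.85), a bone matrix protein. Nearest to Il7r were Prss34 (0.86), a protease of basophils and mast cells, Slc4a1 (0.95), the red cell anion exchanger, and F13a1 (1.005), a coagulation factor chain. Igll1 was nearest to Cxcl12 (0.24), a chemokine of marrow stroma. Among the genes nearest to Vpreb3 were Pyhin1 (0.34) and Ly6c2 (0.37). For each of these genes both libraries numbered 1 exceeded both numbered 2, by little within the KO for Prss34, which was at 327.7 and 272.0 in Sin3B KO 1 and 2 and at 1979 and 9.89 in WT 1 and 2. Bank1 was nearest to Commd10 (0.38), Ugt1a7c (0.47) and Crbn (0.49), of which Crbn is the substrate receptor of a ubiquitin ligase. Cd79b was nearest to Gxylt1 (0.0069), Ramp1 (0.015) and Anapc2 (0.016), and Cd72 to Chd1 (0.0097), Chd1l (0.011) and Slc25a13 (0.021), which is near-identity among the many genes with little variation.

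The wider B-cell programme was followed through 93 further genes in 6 lists, of which 61 were listed with values. Pax5, Ms4a1, Cd22, Ighm, Igkc, Vpreb1, Rag1 and Rag2 are among the 32 not analysed here. Between genotypes 0 of the 61 passed in either direction (limma, Benjamini-Hochberg adjusted p over all genes, smallest among them 0.548), as did 0% of all 9244 genes in this fit on genotype alone. At an unadjusted p under 0.05, 1 was higher in Sin3B KO (Igj) and 5 were lower (Tcf12, Runx1, Notch1, Jak3 and Bcl11a), against 4.97% and 3.95% of all genes (8.91% in either direction). At an adjusted p under 0.05 the authors' deposited table called none of the 61 (0 genes), while it called 0.204% of all genes higher and 0.112% lower. Their median genotype difference was -0.08 on the log2(value + 1) scale, with 26 above 0 and 35 below, beside 0.03 over all genes. Both KO libraries lay below both WT libraries for 17 of the 61 (19.4% of all genes) and above for 7 (24.7%).

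By library number, both number 1 libraries lay above both number 2 libraries for 19 of the 61 and below for 8, against 17.1% and 18.8% of all genes. The median difference was 0.15. A single one, Dntt, the terminal transferase that adds bases at immunoglobulin joints, had a number 1 level at least 4 times that of number 2 in both genotypes. Dntt was at 610.3 and 136.4 in Sin3B KO 1 and 2, and at 397.9 and 24.7 in WT 1 and 2. Cd79a, the partner chain of Cd79b, was at 505.5 and 165.9 in Sin3B KO 1 and 2, and at 378.5 and 94.0 in WT 1 and 2. Both had the library order of Igll1 and Vpreb3, whereas Cd79b differed by number only 1.26-fold in the KO and 1.24-fold in WT.

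In the list of the B-cell receptor and its signalling, 14 of 18 genes were listed, with a median genotype difference of -0.04 and a median number difference of 0.00. The most abundant were Ptpn6, a phosphatase, at 6649 ± 389 in Sin3B KO and 6077 ± 837 in WT, and Pik3cd, a lipid kinase subunit, at 3673 ± 792 in Sin3B KO and 3889 ± 686 in WT (SD, n = 2 each). Prkcb, a protein kinase C, was at 315.2 and 179.2 in Sin3B KO and at 576.9 and 276.0 in WT. Of the transcription factors, 12 of 20 were listed, and their median genotype difference of -0.46 was the lowest of the 6 lists, with 8 below 0. Among these, both KO libraries lay below both WT libraries for 6 (19.4% of all genes) and above for 1 (24.7%). Tcf3, which encodes the E2A proteins upstream of Ebf1, was at 414.2 and 181.0 in Sin3B KO and at 378.5 and 636.0 in WT, and Pou2f2 at 126.9 and 103.4 in Sin3B KO and at 288.5 and 137.5 in WT. Mef2c was at 6573 ± 531 in Sin3B KO and 5956 ± 431 in WT, and Ikzf1, encoding Ikaros, at 3228 ± 783 in Sin3B KO and 2517 ± 230 in WT (SD, n = 2 each). Irf8 had the widest number difference of the list (1.82), at 605.5 and 201.5 in Sin3B KO 1 and 2 and at 784.4 and 187.9 in WT 1 and 2.

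Genes of the interleukin 7 receptor signalling list went both ways by number. The 10 listed of 11 had a median number difference of -0.06 and a median genotype difference of -0.25. Both number 1 libraries lay above both number 2 libraries for 2 (17.1% of all genes) and below for 3 (18.8%). The 2 were Crlf2 and Tslp, which belong to thymic stromal lymphopoietin signalling and were put in the same list. Il2rg, the common chain that pairs with Il7r, was higher in number 2 within each genotype. It was at 7397 and 10658 in Sin3B KO 1 and 2 and at 4537 and 7376 in WT 1 and 2. The numbers overlapped, as Sin3B KO 1 lay just above WT 2. Il2rg was the 1 listed gene here with both KO libraries above both WT libraries (24.7% of all genes). The kinase Jak1 was at 5496 ± 368 in Sin3B KO and 6309 ± 523 in WT (SD, n = 2 each). The widest difference was that of Crlf2, the chain that pairs with Il7r in the receptor for thymic stromal lymphopoietin, at 157.6 and 40.1 in Sin3B KO 1 and 2 and at 244.0 and 87.0 in WT 1 and 2, a number difference of 1.71.

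Of the surrogate light chain, immunoglobulin and recombination list, 5 of 13 were listed, with a median genotype difference of 0.46. Igj, the joining chain of secreted immunoglobulin, was at 9335 ± 374 in Sin3B KO and 6798 ± 762 in WT (SD, n = 2 each), and its number difference was 0.07. The repair gene Prkdc was lower in both KO libraries, at 422.9 ± 39.4 in Sin3B KO and 592.7 ± 160 in WT, while Lig4, which seals broken ends, overlapped, at 153.5 ± 73.0 in Sin3B KO and 89.1 ± 33.7 in WT (SD, n = 2 each). Of the lymphoid priming genes, 7 of 11 were listed, and their median number difference of 1.14 was the highest of the 6 lists. Cd52 was at 570.9 and 259.5 in Sin3B KO 1 and 2 and at 548.4 and 110.8 in WT 1 and 2. Satb1 stood apart through 1 library, at 68.2 and 62.4 in Sin3B KO and at 327.2 and 57.4 in WT. Cd27 was at 2196 ± 85.9 in Sin3B KO and 2925 ± 125 in WT (SD, n = 2 each), with a number difference of -0.08.

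The B-cell surface list, with 13 of 20 listed, had a median genotype difference of 0.04 and a median number difference of -0.02. Cd74, the invariant chain of antigen presentation, was at 5979 ± 386 in Sin3B KO and 5048 ± 1183 in WT, and Cd24a at 3584 ± 540 in Sin3B KO and 3958 ± 1202 in WT (SD, n = 2 each). H2.Eb1, a class II chain, ran against the number order of Igll1, at 31.7 and 489.6 in Sin3B KO 1 and 2 and at 189.3 and 387.7 in WT 1 and 2. Cd53, a tetraspanin of leukocytes, followed that order, at 1591 and 1043 in Sin3B KO 1 and 2 and at 1817 and 431.2 in WT 1 and 2.

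**Figure D4:**
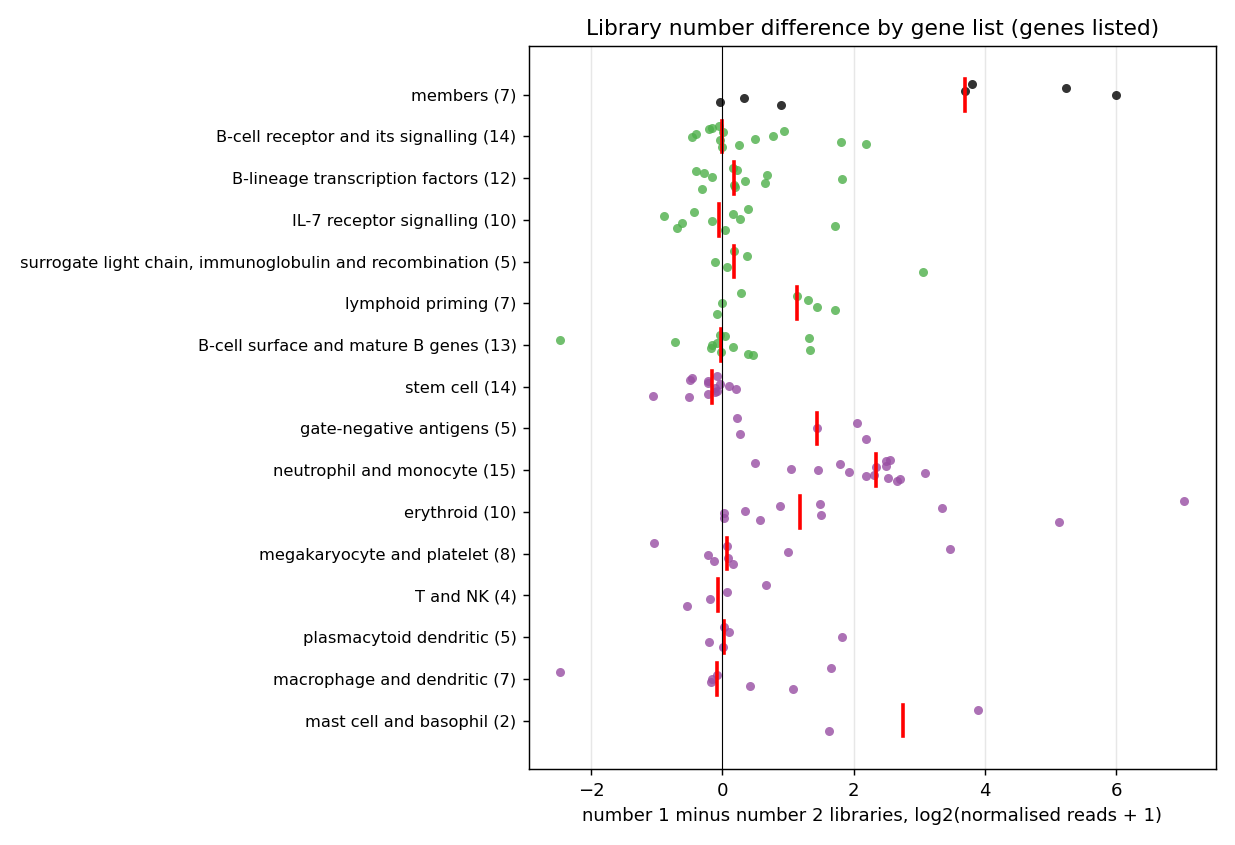
The number 1 minus number 2 difference in log2(normalised reads + 1) for each listed gene, by list, with the list's median as a red bar and the number of listed genes in brackets. The neutrophil and monocyte genes lie above 0 throughout (median 2.34), most stem cell genes lie below 0 (median -0.16, with 2 of 14 above), and among the B-lineage lists the lymphoid priming genes have the highest median (1.14).

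Markers of other cells moved with the same library number as Ebf1, Il7r, Igll1 and Vpreb3. The 15 neutrophil and monocyte genes, all listed, summed to 55580 and 25103 in Sin3B KO 1 and 2 and to 81166 and 14997 in WT 1 and 2, and 14 of them were higher in both libraries numbered 1 (17.1% of all genes). Their most abundant gene, Mpo, was at 19732 and 5569 in Sin3B KO 1 and 2, and at 17017 and 2359 in WT 1 and 2. Of 14 erythroid genes 10 were listed, all with a number difference above 0, and their sums were 78620 and 62652 in Sin3B KO and 58713 and 57325 in WT, most of it Car2. Slc4a1, a defining gene of late red cells, was at 0 in WT 2. Both listed mast cell and basophil genes of 8, Cpa3 and Prss34, summed to 606.5 and 412.0 in Sin3B KO 1 and 2 and to 2288 and 74.2 in WT 1 and 2. The 8 listed megakaryocyte genes (of 10) had a median number difference of 0.07, with sums of 37707 to 42763 in Sin3B KO and 36732 to 38365 in WT. The 7 macrophage and dendritic genes (of 15) had a median of -0.08, with sums of 9925 to 11035 in Sin3B KO and 8434 to 10316 in WT. The 5 plasmacytoid dendritic genes (of 10) had a median of 0.03 and sums of 5958 to 6115 in Sin3B KO and 5837 to 6953 in WT, and the 4 T and NK genes (of 14) a median of -0.06 and sums of 5520 to 5705 in Sin3B KO and 4627 to 4849 in WT. Of the 9 genes in the list of gated antigens, 5 were listed. Flt3, encoding Flk2, was at 830.4 and 354.0 in Sin3B KO 1 and 2 and at 1170 and 371.9 in WT 1 and 2, and Itgam, an integrin of myeloid cells, at 391.2 and 133.8 in Sin3B KO and at 636.2 and 106.8 in WT. The most abundant genes of the gated antigens (Cd34), of the plasmacytoid dendritic list (Tcf4) and of the T and NK list (Gata3) differed less by number, by 0.26, 0.03 and -0.53 in that order. The part of these other cells in the levels of the B-lineage genes was not tested.

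As for Bank1, both KO libraries lay above both WT libraries in the erythroid and in the T and NK sums, and in none of the other marker sums given here. Gene by gene, this held for 1 of the 4 listed T and NK genes, Lat (24.7% of all genes). The erythroid sums are led by Car2, at 58231 and 54321 in Sin3B KO and at 49010 and 51127 in WT, a log2(value + 1) difference of 0.17. Over the 10 listed erythroid genes the genotype difference was above 0 for all 10, with a median of 0.65, and both KO libraries lay above both WT libraries for 4 (24.7% of all genes). Among these 4, Gata1, the erythroid transcription factor, was at 3144 and 1842 in Sin3B KO and at 1004 and 1063 in WT, a difference of 1.22. Car1, a carbonic anhydrase, was at 10488 and 3984 in Sin3B KO and at 2847 and 3353 in WT, a difference of 1.06. Gata1 and Car1 were named after their values were seen. The part of these cells in the difference of Bank1 was not tested.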

How the data were processed

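RNA of sorted mouse stem cells was measured in 2 Sin3B KO and 2 WT libraries. Per the submitters' processing notes, Bowtie, DESeq and build mm9 were used, without versions, and neither a counter nor an annotation is named there. The authors deposited 1 table whose library columns hold a signal, read counts divided by 1 size factor per library: every value was a whole multiple of its library's step within 0.01 of a step (steps 0.961 and 0.892 in Sin3B KO 1 and 2, 1.14 and 0.989 in WT 1 and 2). Depth and the counting intervals take 1 step as 1 read and hold only if that is so. Too few low values are listed to establish the steps from them alone, so no count model was run. Per the file headers, the table also holds the authors' log2 fold change, its standard error, a test score, p-values and adjusted p-values. Of its 9796 genes, 552 have no library values and were left out. Nothing says that libraries of a genotype are separate animals, so the p-values reflect library-to-library spread alone, possibly technical.

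limma 3.58.1 in R 4.3.3 was fitted to log2(value + 1) of all 9244 genes with a trended prior, genotype alone, and a Benjamini-Hochberg adjusted p under 0.05 as threshold; the filter (1 or more in 2 libraries) kept all. The fit was tested on simulated data, with equal spread in every gene and no difference by library number. Those settings differ from these libraries, so the test does not show how the fit performs here. Ratios of 2 libraries carry exact conditional binomial intervals (95%) on the derived reads. A 0 was replaced by 3 reads, and such ratios carry no interval. Exon lengths came from GENCODE M21 by Ensembl identifier and promoters from RefSeq, both on GRCm38; no coordinates of the authors' build are given. The genes and lists were chosen with earlier results of these data known. Named genes were all members, the 3 nearest genes of each, and per list the 2 most abundant, the 2 with the largest genotype and the 1 with the largest number difference; Cd79a, Flt3 and Itgam were named after their values were seen, as were the genes under an unadjusted p of 0.05. Some genes that this rule takes are not reported here. Alternatives were other pseudocounts and scalings, a filter on the mean, the replicate block, and each library left out.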

Additional observations from a re-analysis of the deposited data

How the results depend on the processing

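Under pseudocounts of 0.1 and 5, trimmed mean scaling, equal totals and a mean of at least 500, 0 genes passed for the genotype (limma), as with the deposited scaling, where 824 had an unadjusted p under 0.05. With each library left out, between 0 and 1 gene passed (1 when WT replicate 2 was left out, and 1 when Sin3B KO replicate 2 was). Fitted with a replicate block, 27 genes passed, 15 of them higher in Sin3B KO. The deviations of same-numbered libraries from their group means correlated across genes (Pearson r 0.465 over 9244 genes, which are not independent), but with 2 pairs and no label on what the number marks, the libraries were not treated as paired. Of the 61 other B-lineage genes 0 passed in every setting with all 4 libraries, the block included. With a mean of at least 500, only 38 of the 61 were tested. The genotype difference of Il7r ranged from 0.85 to 3.55 with the pseudocount and scaling, as 1 of its libraries is at 0, and that of Ebf1 from 0.25 to 0.56; for Bank1 the range was 2.28 to 2.38. Number differences kept their signs in these settings for all 7 genes. The 2 count models planned were not run. Depth limits Ebf1 and Il7r in WT 2, with 3 and 0 reads.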

Other observations

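In 25 of the 9244 genes the libraries numbered 1 held at least 4 times the level of those numbered 2 in both genotypes, and in 5 genes the reverse held. Besides Ebf1, Il7r, Igll1, Vpreb3 and Dntt, these 25 include the erythroid genes Slc4a1, Alas2 and Rhd; the myeloid genes Fcnb, Hp and Clec12a; Hdc, which makes histamine; and Cxcl12 and Ibsp, genes of marrow stroma and bone. Ibsp was at 409.4 and 5.35 in Sin3B KO 1 and 2, and at 153.9 and 0 in WT 1 and 2. Cxcl12 was at 1432 and 80.3 in Sin3B KO 1 and 2, and at 521.0 and 48.5 in WT 1 and 2. Cd48, a surface protein known to be low on long-term stem cells and not part of this sort, was at 908.3 and 162.3 in Sin3B KO 1 and 2, and at 798.1 and 137.5 in WT 1 and 2. Trim21, a ubiquitin ligase that binds antibody, was at 870.8 and 61.5 in Sin3B KO 1 and 2, and at 469.7 and 89.0 in WT 1 and 2. These genes were named after their values were seen, and what the number marks is not stated.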
